A study of Drosophila melanogaster with 24 samples.

Results

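RNA polymerase II (Pol II) and Ada2b, a subunit of the SAGA coactivator, were compared through their peaks of chromatin immunoprecipitation followed by sequencing (ChIP-seq) in early Drosophila melanogaster embryos. All peaks of the 2 Pol II libraries (1188_2 and 1632_1) and of the 4 libraries of Ada2b (numbered 1530_1, 1530_2, 1530_3 and 1760_2) were taken, which gave 22009 Pol II and 12149 Ada2b peaks. These were 34158 of the 83085 peaks in the 14 ChIP lists of the series, and the other lists belong to the SAGA subunits Spt3, Sgf11 and Non-stop. Embryos were collected at 25 degrees between 1 and 3 h of age, at stages 4 to 6 as judged under the microscope, and were fixed with formaldehyde. No treatment, genotype or strain sets the groups apart, and the libraries differ by antibody. Ada2b was precipitated with a rabbit antibody against an N-terminal part of the protein. Pol II was precipitated with the mouse antibody 4H8, whose epitope is given as the repeat of the C-terminal domain (CTD) with phosphorylated serine 5. The first part of a library number is taken here to name its set, a reading of the titles. Pol II and Ada2b shared no set in this sense, so that antibody and set cannot be told apart. The labels do not say that libraries of one factor came from separate embryo collections, so the spread between them may be technical.

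SAGA is a large complex assembled from modules, and it is recruited to genes by activators. Ada2b belongs to the histone acetyltransferase module, in which it partners the enzyme Gcn5, and this module acetylates histone H3. Spt3 represents the module that contacts the TATA-binding protein, whereas Sgf11 and Non-stop form part of the deubiquitinase module, which removes ubiquitin from histone H2B. Serine 5 of the CTD is phosphorylated as Pol II starts transcription, and this form is known to gather near the 5′ ends of genes. In embryos of this age the zygotic genome is being switched on.

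The peak lists carry no read counts, hence sequencing depth is not known here, and yield can be judged only by how many peaks each library gave. Ada2b lists held 3262, 1878, 1563 and 5446 peaks in the order given above. Pol II list 1188_2 held 11440 peaks over 17.5 Mb, and list 1632_1 held 10569 peaks over 11.1 Mb. Pol II peaks were thus both more numerous and broader. Median widths of Ada2b peaks lay between 318 and 383 bp. The median Pol II peak was 583 bp wide in 1188_2 and 489 bp in 1632_1, and the widest spanned 51927 and 42604 bp. Pol II peaks of 2000 bp or more were 19.6% of list 1188_2 and 11.7% of list 1632_1, and they held 67.6% and 52.1% of the covered bases. List 1632_1 was nearly nested in the other, as 94.6% of its peaks overlapped a peak of 1188_2, whereas 53.7% of the peaks of 1188_2 overlapped one of 1632_1. A peak was therefore said to have Pol II when it overlapped, by 1 bp or more, a peak of both lists.

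Most Ada2b peaks lay at Pol II, and most Pol II peaks had no Ada2b. Pol II was present at 68.9% of the Ada2b peaks of library 1530_1, at 66.9% in 1530_2, at 64.2% in 1530_3 and at 68.5% in 1760_2. The mean was 67.1% ± 2.15 (SD, n = 4), and the 4 libraries stayed within 5 percentage points although their numbers of peaks differed more than 3-fold. As a background, the span of the lists was tiled in windows of 500 bp, and 8.8% of these windows overlapped a peak of both Pol II lists. The windows are wider than most Ada2b peaks. A further 10.1% ± 2.29 of the Ada2b peaks had Pol II in 1188_2 alone, 1.35% ± 1.01 had it in 1632_1 alone, and 21.4% ± 3.25 overlapped neither list. The share was 77.3% ± 4.20 when list 1188_2 was used by itself and was 68.5% ± 1.42 with 1632_1. It was 44.5% ± 2.93 when every Pol II peak was set to 500 bp around its summit. The level thus depended on how broad Pol II peaks were allowed to be.

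In the other direction the libraries did not agree in level. The share of Pol II peaks overlapped by Ada2b was 29.8% on average for library 1760_2, the one with most peaks, and 19.0%, 9.88% and 8.39% for 1530_1, 1530_2 and 1530_3. Its mean was 16.8% ± 9.85 (SD, n = 4), and the order was that of the number of Ada2b peaks. With every SAGA list reduced to the same number of its strongest peaks, the share was 9.31% ± 1.00. Of the windows of 500 bp, 3.24% overlapped an Ada2b peak of 1 or more libraries. Many Pol II peaks are wider than these windows, and the shares above are per Ada2b library, so the values are not like for like. The Pol II lists gave nearly equal shares for any Ada2b library, for instance 29.2% for 1188_2 and 30.4% for 1632_1 with Ada2b library 1760_2. Counted in bases the overlap was as one-sided. Between 68.0% and 77.1% of the bases under Ada2b peaks lay in Pol II list 1188_2, and 2.62% to 11.01% of the Pol II bases lay under Ada2b. For 1632_1 these were 56.9% to 62.2% and 3.55% to 13.05%. Of the whole span, list 1188_2 covered 10.4% and 1632_1 covered 6.67%, and the Ada2b libraries covered 0.403% to 1.49% each.

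**Figure D1:**
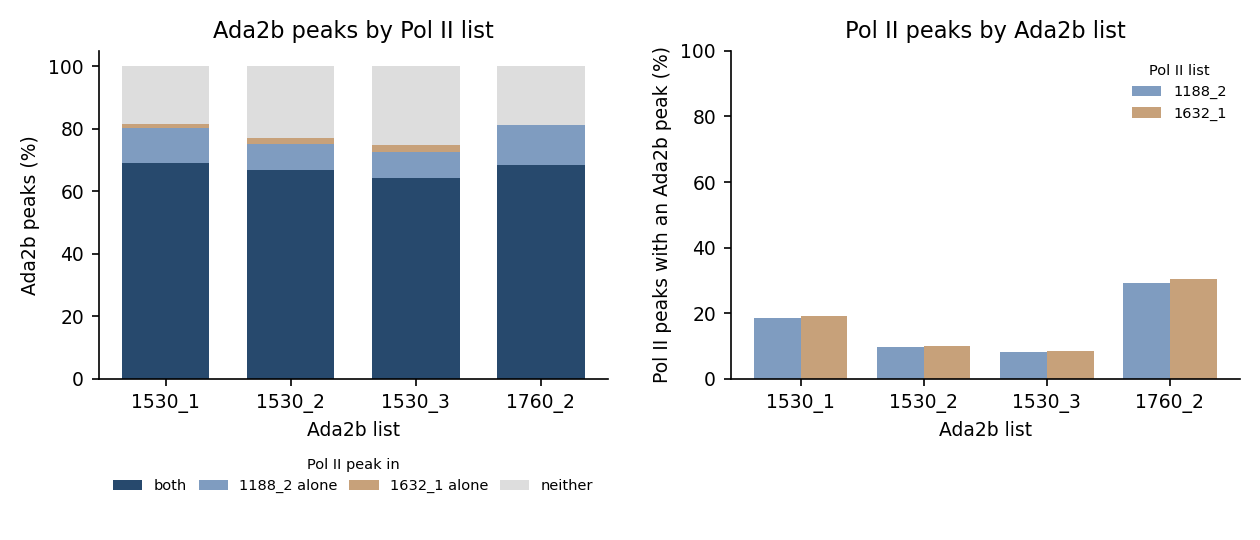
Left, Ada2b peaks of each library (%) split by the Pol II list that holds an overlapping peak. Right, Pol II peaks of each list (%) that overlap an Ada2b peak, by Ada2b library. No error bars are drawn because each bar is 1 library. Peaks with both Pol II lists fill 64.2% to 68.9% of every Ada2b library on the left, while the bars on the right follow the number of Ada2b peaks.

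To place Ada2b among the SAGA subunits, the same share was computed for the other lists. Spt3 peaks had Pol II in 71.4%, 83.0% and 69.2% of cases in libraries 1530_1, 1530_2 and 1760_2, each above all 4 Ada2b libraries. Ada2b was lower than Spt3 by 7.41 percentage points, with an exact two-sided permutation p of 0.0286 (n = 4 and 3), the smallest this design can give. Adjusted by Benjamini-Hochberg for the 14 tests of the family, the exact p was 0.182. Ada2b and Spt3 libraries of the same number were taken as paired by their deviations, although the size of the lists enters these as well. For Spt3 library 1530_1 this is weak, as the correlation was 0.131 with Ada2b 1530_1 and 0.125 with Ada2b 1530_2. In the paired comparison with the number as a replicate block, the difference was −6.43 points over 3 pairs (exact p = 0.25, the smallest possible). Without a library of Ada2b or Spt3 the exact p cannot go below 0.1 or 0.0667, so these designs say nothing about the call. Their differences lay between −10.1 and −3.18 points, and the smallest was that without Spt3 library 1530_2. Without either Pol II library the design is unchanged, and the exact p was 0.0571. Within set 1530 the difference was −10.5 points, and over all the alternatives exact p lay between 0.0286 and 0.286. Sgf11 had Pol II at 67.4%, 62.6% and 66.1% of its peaks, which overlap the Ada2b values (difference 1.74 points, exact permutation p = 0.371, adjusted 0.404). Non-stop had it at 73.3%, above all Ada2b values, and at 65.0%, within their range (difference −2.05 points, exact permutation p = 0.533, adjusted 0.533, with 0.0667 the smallest possible). Both directions depended on the processing. The difference from Sgf11 was −10.3 points with equal numbers of peaks (exact permutation p = 0.0286, the smallest possible), −11.6 in the upper 50% of each list by score and −2.35 without Pol II library 1632_1. The difference from Non-stop was 10.01 points with Pol II peaks of 500 bp and 2.11 without Non-stop library 1924_1.

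The share with Pol II was lower at the strongest than at the weakest Ada2b peaks in all 4 libraries when Pol II peaks were kept as called, in a design too small to pass 0.05. Peaks of each Ada2b library were ranked by score, a whole number that the peak caller derives from the q-value, and cut into quintiles. In library 1530_2 the share with Pol II was 91.5% in the weakest quintile, 64.1% in the middle quintile and 42.7% in the strongest. In 1530_3 it was 90.1%, 59.4% and 40.7%. In 1530_1 it was 81.9%, 66.9% and 55.1%. Library 1760_2 differed from these, since its first 4 quintiles lay between 70.0% and 71.5% and only the strongest quintile was lower, at 60.8%. The strongest minus the weakest quintile came to −33.6 points ± 19.3 (SD, n = 4), and the sign was the same in 4 of 4 libraries. An exact two-sided sign-flip permutation gave p = 0.125, the smallest value that 4 libraries allow (adjusted exact p = 0.182, range over the alternatives 0.125 to 0.875). Within set 1530, and so without library 1760_2, the difference was −41.7 points, and in the upper 50% of each list it was −17.9 points. Median fold enrichment at the summit was 2.08 ± 0.06 in the weakest and 5.70 ± 0.09 in the strongest quintile.

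When Pol II peaks were given one width, the 4 libraries no longer shared a direction. With Pol II peaks of 500 bp around their summits, the strongest minus the weakest quintile was −1.03 points ± 13.8 (exact permutation p = 0.875, with 0.125 the smallest possible). Such a test cannot show that the dependence is absent. From the weakest to the strongest quintile, library 1760_2 then went from 32.2% to 49.8%, 1530_1 from 45.8% to 44.6%, 1530_2 from 38.6% to 33.6% and 1530_3 from 46.6% to 31.1%. The width of the Pol II peak around an Ada2b summit moved with the Ada2b rank in the means over libraries. Its median was 4418 bp ± 1346 for Ada2b summits of the weakest quintile, 2682 bp ± 225 in the middle quintile and 2057 bp ± 180 in the strongest. The score percentile of these Pol II peaks, on a scale where 100 is the highest of a list, was 93.3 ± 2.62 and 86.15 ± 1.04 in the weakest and strongest quintile. Weak Ada2b peaks that lay in Pol II peaks thus lay in broader and higher-scoring ones. The trend in width was not steady in library 1760_2. With Pol II list 1632_1 its medians were 2200 bp in the weakest, 1409 bp in the second weakest and 1525 bp in the strongest quintile. The fixed width also lowered the share over all Ada2b peaks, as given above, and the part of Pol II breadth in the score dependence was not isolated. Median Ada2b peak width was itself 258 bp ± 5.11 in the weakest and 474 bp ± 40.4 in the strongest quintile. A wider Ada2b peak overlaps more by its size. With the Ada2b summit required inside peaks of both Pol II lists as called, the strongest minus the weakest quintile was −45.6 points ± 17.9. Within Pol II peaks, the Ada2b score and the Pol II score of the same place were weakly and inversely ranked. Spearman coefficients across 871 to 4190 summits lay between −0.286 and −0.0453 over the 8 pairs of lists, given as a description since peaks of one library share that library.

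The ranks of the other subunits served as a comparison that was chosen after the Ada2b values were seen. In Sgf11 the strongest quintile had more Pol II than the weakest in all 3 libraries, by 8.61, 16.9 and 11.6 points. Ada2b was lower than Sgf11 in this measure by 45.9 points (exact permutation p = 0.0571, adjusted 0.182). Spt3 gave −13.8, −18.5 and 13.5 points, and Ada2b differed from it by −27.3 points (exact permutation p = 0.143, adjusted 0.182). Non-stop gave −4.92 and 13.99 points, and the difference was −38.1 points (exact permutation p = 0.133, adjusted 0.182). None of these passed 0.05, and for Sgf11 p was 0.0286 at the lowest and 0.133 at the highest over the alternatives. With Pol II peaks of 500 bp, Ada2b still differed by −27.7 points from Sgf11, −21.7 from Spt3 and −49.4 from Non-stop. By width of the Ada2b peaks, the widest minus the narrowest quintile was 10.6 points ± 17.4 (exact permutation p = 0.375, adjusted 0.404), with no common sign. In the upper 50% of each list it was 29.7 points ± 14.5 with the same sign in 4 of 4 libraries (exact permutation p = 0.125, the smallest possible), and over the alternatives it lay between 2.81 and 29.7.

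**Figure D2:**
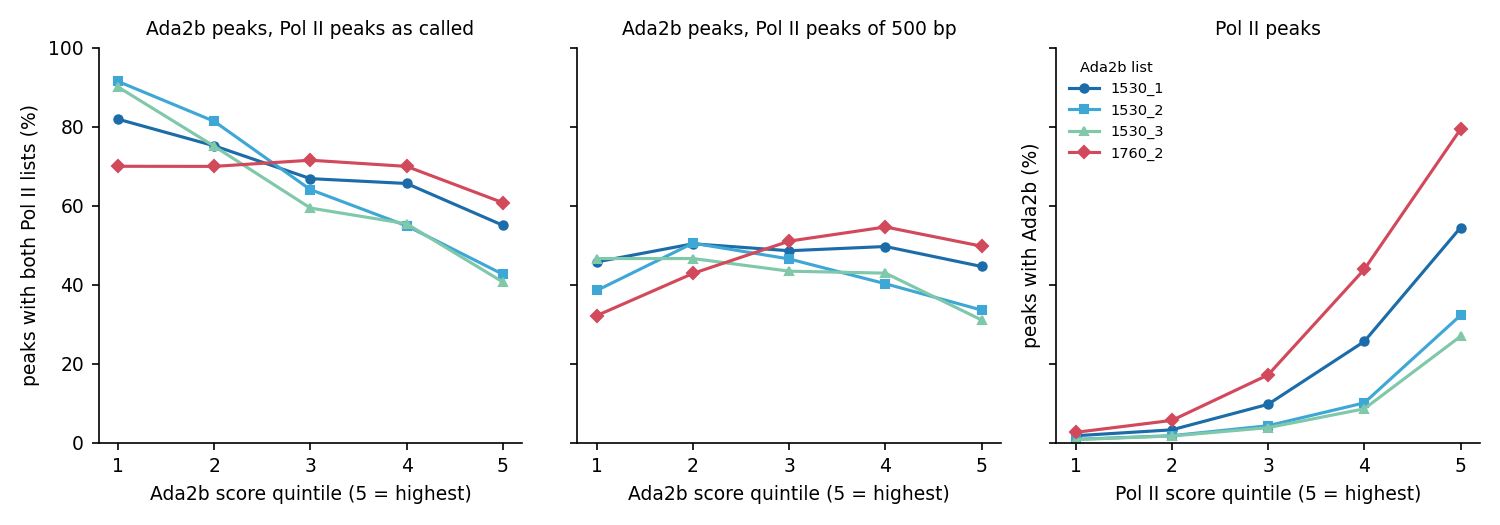
Share of peaks (%) against the quintile of score, with 1 line per Ada2b library. The left and middle panels give Ada2b peaks that overlap both Pol II lists, with Pol II peaks as called and set to 500 bp. The right panel gives Pol II peaks that overlap Ada2b, as the mean of the 2 Pol II lists. Lines fall on the left (in 1760_2 at the strongest quintile), have no common direction in the middle and rise in all 4 libraries on the right.

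Seen from Pol II, Ada2b was concentrated at the high-scoring peaks. In the strongest quintile of Pol II list 1188_2, Ada2b library 1760_2 overlapped 78.9% of the peaks, 1530_1 overlapped 54.6%, 1530_2 overlapped 32.1% and 1530_3 overlapped 27.0%. In the weakest quintile these shares were 1.70%, 1.22%, 0.787% and 0.699%, so that the quintiles did not overlap for any pair of libraries. List 1632_1 gave 79.8%, 54.3%, 32.4% and 26.9% in the strongest quintile, and 3.595% was the highest value in its weakest. The strongest exceeded the weakest quintile by 46.7 points ± 23.1 (SD, n = 4, higher in 4 of 4 libraries, exact sign-flip permutation p = 0.125, adjusted 0.182). With Pol II peaks of 500 bp, still ranked by their score, the difference was 42.5 points. The part of Pol II breadth in it was not tested. The size of the difference followed the number of Ada2b peaks. With equal numbers of peaks it was 26.0 points ± 1.08, nearly alike in the 4 libraries, and in the upper 50% of each list it was 22.7 points.

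Wide Pol II peaks also had Ada2b more often. The share of Pol II peaks with Ada2b was 36.2 points ± 15.8 higher in the widest than in the narrowest quintile, and higher in 4 of 4 libraries (exact permutation p = 0.125, adjusted 0.182). It was 21.5 points ± 0.58 with equal numbers of peaks and 22.5 points in the upper 50% of each list. In list 1188_2, whose narrowest quintile had a median of 243 bp and whose widest had 3712 bp, the mean over Ada2b libraries was 2.58% ± 1.62 and 44.9% ± 21.8. In list 1632_1, with medians of 236 and 2271 bp, it was 5.12% ± 3.92 and 35.2% ± 15.2. A wider peak has more room for a summit, and so the number of Ada2b summits per Mb of Pol II peaks was also taken. In 1188_2 this density was 52.9 in the narrowest quintile, 159 in the second widest and 129 in the widest, and in 1632_1 it was 51.2, 194 and 144. The drop in these means was not shared by Ada2b library 1530_2, whose density went from 79.8 to 83.3 and from 102 to 107 in the same step. The log2 ratio of the widest to the narrowest quintile was 1.42 ± 0.07 (n = 4, exact permutation p = 0.125, adjusted 0.182). It turned to −0.62 when the upper 50% of each list by score was used. Score and width of Pol II peaks were themselves ranked alike, with Spearman coefficients across peaks of 0.688 and 0.628.

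Both Pol II measures were then split at their median. Among high-scoring Pol II peaks, the wide ones overlapped Ada2b in 36.5% ± 20.2 and the narrow ones in 14.4% ± 11.5, with densities of 166 ± 93.6 and 203 ± 161 summits per Mb. Among low-scoring Pol II peaks, the wide ones overlapped Ada2b in 2.52% ± 1.41 and the narrow ones in 3.39% ± 2.17, with densities of 15.6 ± 12.5 and 47.5 ± 29.3 summits per Mb. High-scoring peaks thus exceeded low-scoring ones in share and density at either width. In these means, wide peaks exceeded narrow ones in share among the high-scoring peaks only. Among low-scoring peaks of list 1188_2, the wide ones had the higher share for 1530_2 (1.66% and 1.54%) and 1530_3 (1.59% and 1.37%). They had the lower share for 1530_1 and 1760_2, and for every library in list 1632_1. Among the high-scoring peaks the density had no common order. In list 1188_2 the wide peaks had the higher density for the libraries of set 1530 (168 and 165, 92.4 and 60.3, 72.9 and 50.8) and the lower one for 1760_2 (276 and 360). In list 1632_1 they had the higher density for 1530_3 alone (95.2 and 94.7). The values with an SD are means over the 4 Ada2b libraries, and no value here has a test.

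**Figure D3:**
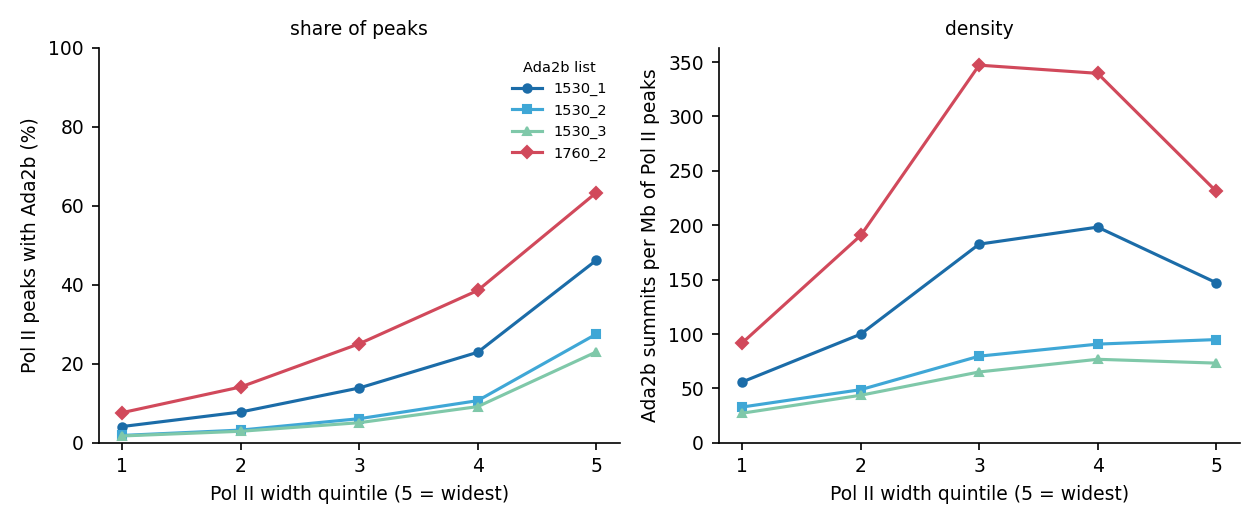
Pol II peaks by quintile of width, as the mean of the 2 Pol II lists, with 1 line per Ada2b library. The left panel gives the share that overlaps Ada2b (%), the right panel the number of Ada2b summits per Mb of Pol II peaks. The share is highest in the widest quintile in all 4 libraries, while the density drops after the middle or next quintile in 3 libraries and rises a little to the last in 1530_2.

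Ada2b summits lay beside Pol II summits more often than on them. The median distance from an Ada2b summit to the nearest Pol II summit was 247, 491, 465 and 262 bp for list 1188_2 in the order of libraries given above. For list 1632_1 it was 299.5, 520, 495 and 344 bp. The mean over libraries was 390 bp ± 119 (SD, n = 4), and 818.5 bp ± 487 in the upper 50% of the lists by score. In bins of 50 bp, 8.31% ± 0.61 of the Ada2b summits lay within 50 bp of a summit of 1188_2, and 12.9% ± 1.92 lay at 100 to 150 bp. For 1632_1, 8.70% ± 1.36 lay within 50 bp and 11.7% ± 1.82 at 150 to 200 bp. The fullest bin was between 100 and 200 bp in 7 of 8 pairs of lists, and for Ada2b 1530_2 with Pol II 1632_1 the first bin and that at 150 to 200 bp held 10.01% each. Between 300 and 600 bp no bin reached 3%.

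This spacing was not seen between lists of one factor. Within 50 bp of a summit of the other Pol II list lay 31.7% and 34.4% of the Pol II summits, and 2.92% and 3.15% lay at 100 to 150 bp. Ada2b summits lay within 50 bp of a summit of another Ada2b library in 47.9% of cases on average over the 12 ordered pairs, with a range of 17.4% to 69.5%. Summits of one factor thus coincided more often than those of the 2 factors. The spacing from Pol II was not limited to Ada2b. For Sgf11 the fullest bin was at 100 to 200 bp in all 6 pairs with Pol II lists, for Non-stop at 100 to 150 bp in all 4 pairs, and for Spt3 at 100 to 200 bp in 4 of 6 pairs. For Spt3 library 1530_2 it was within 50 bp of both Pol II lists.

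**Figure D4:**
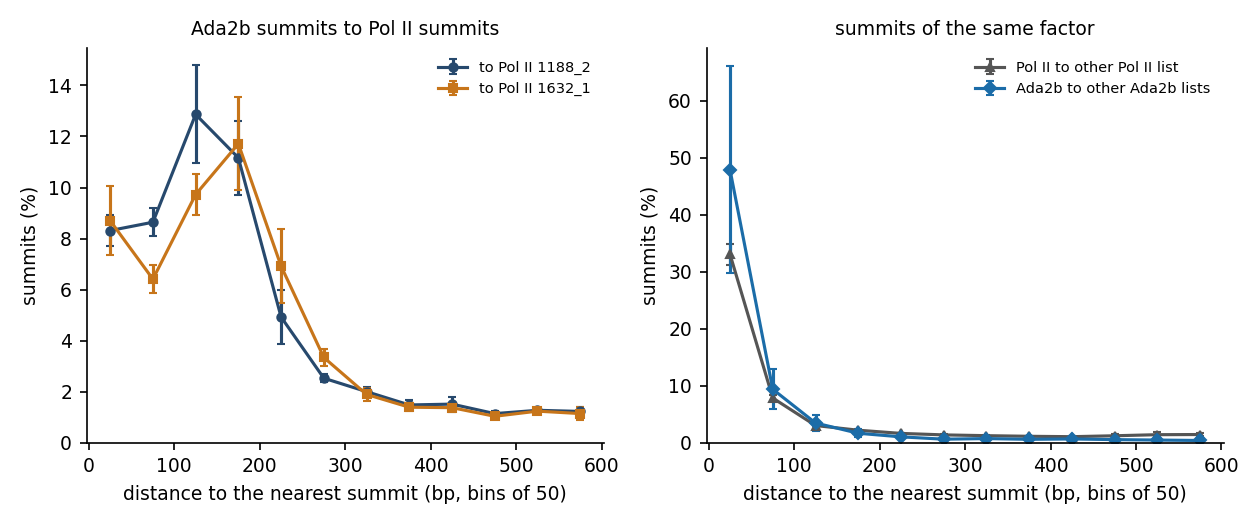
Distance to the nearest summit in bins of 50 bp, as the share of summits (%). Left, Ada2b to each Pol II list, as the mean ± SD of 4 libraries. Right, summits of one factor against other lists of the same factor (mean ± SD over 2 ordered pairs of Pol II and 12 of Ada2b lists). The left curves are highest at 12.9% and 11.7%, between 100 and 200 bp, while both curves on the right are highest in the first bin.

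The rank of the Ada2b peak went with the share of summits close to Pol II. The median distance itself was lowest in the second weakest and middle quintiles, at 258 bp ± 52.2 and 261 bp ± 51.4, and was 520 bp ± 225 in the weakest and 850 bp ± 501 in the strongest. Within 50 bp of a Pol II summit lay 13.4% ± 2.87 of the Ada2b summits of the weakest quintile, 9.19% ± 2.70 of the middle quintile and 2.82% ± 0.81 of the strongest quintile. At 100 to 250 bp lay 19.6% ± 2.44, 31.8% ± 2.99 and 29.2% ± 9.27 of these quintiles, with 36.2% ± 6.42 in the second strongest. Summits on top of Pol II were therefore less frequent among the strongest Ada2b peaks in each library, and in 1760_2 the middle quintile had the highest share (13.3% against 10.1% in the weakest for list 1188_2). The side was also uneven. Among Pol II peaks of 1000 bp or more whose summit lay in the outermost 20% of the peak at either end (1761 in list 1188_2 and 1161 in 1632_1), Ada2b summits 50 to 300 bp away, inside or outside the peak, were counted on either side of the Pol II summit. On the side of the nearer edge lay 468 of 544, 187 of 253, 159 of 221 and 697 of 809 summits in 1188_2. In 1632_1 it was 302 of 360, 134 of 203, 121 of 169 and 423 of 487. These are means of 79.5% ± 7.64 and 77.1% ± 9.91, and over 50% lay on that side in all 8 pairs. Which edge faces the promoter cannot be read from the peaks, as no gene annotation of this genome build was used.

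Ada2b summits inside Pol II peaks lay toward the edges. A summit was inside a Pol II peak for 76.4%, 71.7%, 68.5% and 76.9% of the Ada2b peaks with list 1188_2, and for 55.4%, 58.6%, 55.7% and 53.6% with 1632_1. The outermost 20% of the Pol II peak at both ends together held 51.4% ± 4.10 of these summits, where an even spread would put 40%. Divided into 5 equal steps of depth from the nearer edge to the middle, the outermost step held 28.5% ± 2.45 and the innermost 15.9% ± 1.60 in 1188_2. In 1632_1 these were 33.4% ± 3.75 and 17.03% ± 3.89. Pol II summits themselves had the opposite layout over all peaks, with 7.10% in the outermost and 35.8% in the innermost step of 1188_2. In Pol II peaks of 2000 bp or more, however, the Pol II summits lay near the edge as well. There the outermost step held 29.0% of the Pol II and 30.8% ± 3.28 of the Ada2b summits in 1188_2, and 35.5% and 35.3% ± 5.27 in 1632_1. In broad Pol II peaks both factors thus had their summits near an edge.

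Outside Pol II peaks, most Ada2b summits were kilobases away. The median gap from such a summit to the nearest base of a Pol II peak was between 4070 and 5734 bp for list 1188_2 and between 1691 and 4118 bp for 1632_1. Of all Ada2b peaks, 13.4% ± 2.94 had their summit beyond 5000 bp of any peak of 1188_2, and 5.78% ± 0.29 had it outside but within 500 bp. Peaks that overlapped the list with the summit outside it, at any distance, were 3.90% ± 0.37 of all Ada2b peaks. For the narrower list 1632_1 these were 18.8% ± 1.60, 15.5% ± 2.38 and 12.7% ± 2.48.

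The other SAGA subunits were found more often at Ada2b peaks with Pol II than at those without in all 4 libraries, by the widest margin for Spt3, although 4 libraries cannot reach 0.05. A subunit was counted when 2 or more of its lists had a peak, which for Non-stop means both. Spt3 was present at 66.3%, 74.9%, 78.7% and 49.5% of the Ada2b peaks with Pol II in libraries 1530_1, 1530_2, 1530_3 and 1760_2. At Ada2b peaks that overlapped neither Pol II list it was present at 32.7%, 39.95%, 41.2% and 23.1%. The values with Pol II exceeded those without in 4 of 4 libraries, by 33.1 points ± 4.71 (exact sign-flip permutation p = 0.125, the smallest possible, adjusted 0.182). Non-stop was present at 92.5% ± 2.61 and 79.3% ± 10.9 of the peaks with and without Pol II (difference 13.2 points ± 8.50, exact permutation p = 0.125, adjusted 0.182). The highest difference, 25.1 points, was that of library 1760_2. Sgf11 was present at 82.8% ± 4.54 and 75.3% ± 6.07 (difference 7.56 points ± 2.89, exact permutation p = 0.125, adjusted 0.182). When every SAGA list was reduced to the same number of its strongest peaks, the difference of Sgf11 turned to −11.2 points ± 3.04, while those of Spt3 and Non-stop kept their sign. It was 2.81 points without Pol II library 1188_2, 3.59 in the upper 50% of each list, 3.12 with the summit inside the Pol II peak and 26.5 with Pol II peaks of 500 bp. Spt3 and Ada2b libraries share 3 numbers, and with them the total chromatin sample listed under that number.

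All 3 subunits were found more often at strong Ada2b peaks, where Pol II peaks as called were found less often. From the weakest to the strongest quintile of Ada2b score, the mean share with Spt3 went from 49.2% ± 22.0 to 74.0% ± 4.17. With Sgf11 it went from 57.4% ± 10.0 to 93.9% ± 6.56, and with Non-stop from 79.8% ± 9.63 to 96.1% ± 2.14. These shares are descriptions and carry no test.

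**Figure D5:**
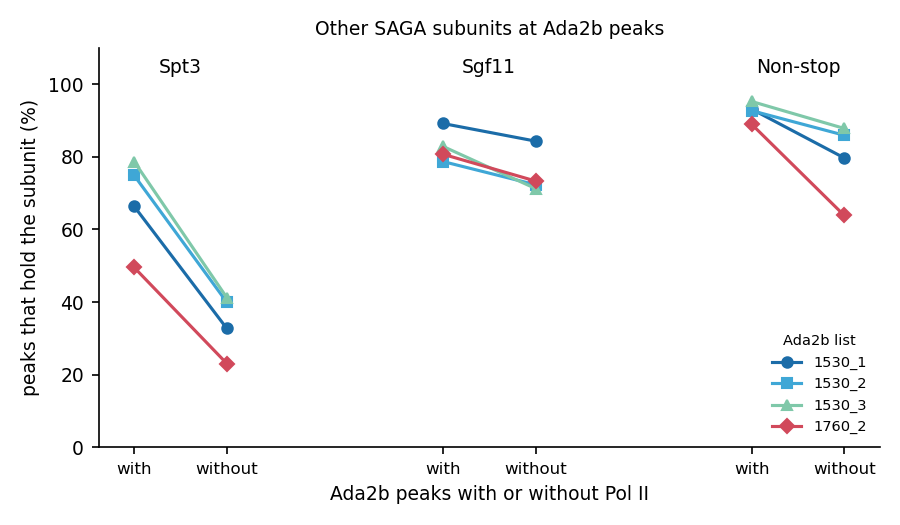
Share of Ada2b peaks (%) that also hold Spt3, Sgf11 or Non-stop, for peaks with both Pol II lists and for peaks with neither, and 1 line per Ada2b library. All 12 lines fall from with to without, those of Spt3 by 26.4 to 37.4 points.

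Ada2b peaks of the 4 libraries that overlapped were joined into 5696 Ada2b sites, to ask whether Pol II goes with how often a site was found. Of these sites, 2509 came from 1 library, 1515 from 2, 496 from 3 and 1176 from all 4. Pol II was present at 65.8%, 70.9%, 73.6% and 65.4% of them, and neither Pol II list had a peak at 20.0%, 15.2%, 13.7% and 25.5%. Sites found in all 4 libraries thus had the highest share without Pol II. Of these, 769 had Pol II in both lists, 107 in 1 and 300 in neither. The median of the mean Ada2b fold enrichment was 3.78 at the 769 and 4.81 at the 300 sites. Spt3 was present at 83.6% of the former and 50.7% of the latter, Sgf11 at 94.1% and 81.7%, and Non-stop at 98.2% and 93.7%. From the middle of the 300 sites, the median gap to a Pol II peak was 6664 bp, and 171 of them lay beyond 5000 bp.

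Pol II peaks that overlapped were likewise joined into regions. Both lists contributed to 5755 regions, of which 2946 had no Ada2b and 964, 825, 301 and 719 had Ada2b in 1, 2, 3 and 4 libraries. Their median widths were 893.5, 1810, 2670, 3049 and 3648 bp in that order. Of the 5864 regions from a single Pol II list, 5241 had no Ada2b, and their median width was 322 bp. Regions of both lists held 1 Ada2b site in 2070 cases and 2 or more in 739 cases, the latter with a median width of 6112 bp. These 739 regions held 49.5% of the 4096 overlaps between sites and regions, and the highest number in one region was 16, in a region of 25334 bp.

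The share of Ada2b peaks with Pol II was similar on the large chromosome arms. It was 70.7% ± 1.92 on 2L, 70.8% ± 1.46 on 2R, 68.0% ± 3.15 on 3L, 68.7% ± 2.65 on 3R and 66.0% ± 1.48 on X. On the small chromosome 4, which is largely heterochromatic, it was 58.6% ± 4.98. It was 25.5% ± 5.30 on sequence outside these arms, which held 2.88% to 4.99% of the Ada2b peaks.

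Named here are the highest-ranked sites and regions of 4 kinds, with coordinates in dm3. They are given without gene names, since no annotation of that build was used. The site with Pol II that ranked first by Ada2b was chrX:12552530-12553663, with fold enrichments for Ada2b of 11.97, 12.4, 12.9 and 12.6 in libraries 1530_1, 1530_2, 1530_3 and 1760_2. Pol II enrichment there was 12.9 in 1188_2 and 9.11 in 1632_1, and the Ada2b summits were a median of 446.5 and 450.5 bp from the Pol II summits. The next were chr4:89081-90185, chrX:3028493-3029339 and chr3L:1668452-1669066, with mean Ada2b fold enrichments of 10.9 ± 0.52, 12.1 ± 0.41 and 11.4 ± 0.54. Their summits were 229.5, 228.5 and 177.5 bp from those of Pol II 1188_2, and 644.5, 234.5 and 216.5 bp from those of 1632_1. All 4 sites had every list of Spt3, Sgf11 and Non-stop.

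Sites without Pol II reached almost the same enrichment. At chr3L:14104435-14105016 Ada2b was enriched 11.4-, 11.5-, 12.5- and 11.2-fold, and the nearest Pol II peak was 34227 bp from its middle. At chr3R:26771933-26772596 the mean was 10.6 ± 0.96 and the gap 33464 bp. The sites chr3R:16289825-16290538 and chr4:1000304-1000912, with means of 10.8 ± 1.02 and 10.6 ± 0.54, lay closer to Pol II, at 3042 and 3781 bp. These 4 sites also had all lists of Spt3, Sgf11 and Non-stop. They were chosen by Ada2b rank among sites of all 4 libraries, and the subunits were more frequent at strong Ada2b peaks. At the 300 sites of all 4 libraries without Pol II, Spt3 was present in 2 or more lists at 50.7%. For Sgf11 and Non-stop the shares there were 81.7% and 93.7%.

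The top Pol II regions with Ada2b were ranked by Pol II and not by Ada2b. Their Ada2b enrichments are thus not comparable with those of the sites chosen by Ada2b. At chr3R:17959322-17961012, ranked first, Pol II was enriched 12.5- and 9.73-fold, and Ada2b 2.66-fold ± 0.48 (SD, n = 4). The Ada2b summits were 72 and 47 bp from the 2 Pol II summits. At chr2R:16988836-16990134, Ada2b enrichment was 2.35 ± 0.29 and the distances were 80 and 83 bp. At chrX:20565133-20569502 it was 2.79 ± 0.30, with a distance of 1069.5 bp to both. The remaining region, chrX:12550412-12555291, holds the site on X named first, so that 1 of the 4 regions was high in both factors.

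Pol II regions without any Ada2b peak ranked nearly as high. The first 4 were all on X, at chrX:1028083-1029590, chrX:18528536-18529124, chrX:19191701-19192446 and chrX:6177056-6177860. Pol II enrichment was between 12.6- and 12.9-fold in 1188_2 and between 7.80- and 8.52-fold in 1632_1. Both Non-stop lists and 1 or more Sgf11 lists had a peak at each of them, and Spt3 was found there in 1, 0, 1 and 2 of its 3 lists. The shares of all Pol II regions that hold these subunits, or that lie on X, are not given here. These counts thus describe the 4 regions only. A missing peak means that Ada2b did not pass the limit of the caller, and not that it was absent.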

How the data were processed

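Peaks of 14 ChIP-seq libraries were used, those of 6 (4 Ada2b, 2 Pol II) in depth, with groups and numbers from the labels. The members and lists compared were chosen with earlier results of these data known. Per the labels and the study's methods, the authors sequenced single reads, used CASAVA 1.8.2, aligned with Bowtie to dm3, keeping reads with few alignments, and called peaks per library with MACS2 at default settings. The methods cover Ada2b, Spt3 and Sgf11, and the text assumes that Non-stop and Pol II were treated alike, while the control used is not given in the sources used here. Total chromatin libraries were not analysed on their own. The deposited lists give a position, a summit, a score (a whole number derived from q), a fold enrichment computed by the authors' caller (a ratio at the summit) and −log10 q values, whose lowest lay between 2.01 and 2.29. Score and fold are not comparable between libraries of unknown depth, so ranks within a list were used.

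Overlaps of 1 bp or more, distances and quintiles were computed in Python 3.11.15 with NumPy 2.4.6 and pandas 2.3.3, plotted with matplotlib 3.10.9, checked against bedtools 2.31.1 and tested on simulated data. No column of another sample was left over. Libraries were the replicates. Tests were exact two-sided permutations of libraries (4 against 3 or 2) or sign flips over 4 Ada2b libraries, adjusted by Benjamini-Hochberg over 14 tests, of which 3 were added after seeing the data. Deviations of site percentiles correlated at 0.131, 0.305 and 0.375 across 7482 sites between Ada2b and Spt3 where numbers matched, and at −0.359 to 0.125 for other pairs. The numbers were taken to pair them. Sites without a peak entered at the bottom of the scale, and library 1760_2 had the most peaks for both factors (5446 and 6311). The size of the lists thus enters these correlations, which cannot by themselves show a pairing. Named places are the 4 highest by mean score percentile on 2L, 2R, 3L, 3R, 4 and X in each of 4 kinds: Ada2b sites of all 4 libraries, ranked by Ada2b, with both Pol II lists or neither, and regions of both Pol II lists, ranked by Pol II, with all 4 Ada2b libraries or none. Coordinates are 1-based. Alternatives left out each library, halved or equalised lists, changed the overlap rule, the Pol II width, the Pol II rule, the chromosomes and the number of rank groups.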

Additional observations from a re-analysis of the deposited data

How the results depend on the processing

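The lists carry no read counts, so depth and binding too weak to be called are unknown, and with 2 libraries Pol II has no test of its own. Of 247 alternative values of 18 results, 9 changed direction. Of the 201 with a test, 167 had a smallest possible exact p above 0.05, so that their side of the threshold says nothing about stability. The mean score-rank difference shrank to −1.03 points with Pol II peaks of 500 bp, over libraries of unlike sign. It was −45.6 points with the Ada2b summit inside the Pol II peak. The share of Ada2b peaks with Pol II was 62.99% with equal numbers of peaks, 52.3% with the upper 50% of each list by score, 54.6% with the summit inside the Pol II peak, 44.5% with Pol II peaks of 500 bp and 78.6% with Pol II in either library. Leaving out 1 library of either factor gave 66.5% to 77.3%. The median summit distance was 818.5 bp in the upper 50%. The outermost 20% at both ends of Pol II peaks held 60.7% of summits there and 57.02% with equal numbers.

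Ada2b minus Spt3 lost its unadjusted exact p below 0.05 in 14 of 17 alternatives, with no change of direction. Leaving out 1 library gave −10.1 to −3.18 points, and designs of 3 against 3 or 4 against 2 cannot go below 0.1 or 0.0667. It was −10.5 in set 1530 alone, −15.5 in the upper 50%, −6.85 with summits inside, −6.03 with Pol II peaks of 500 bp and −6.43 in the paired fit with the replicate block. The block was also run on the score-rank difference from Spt3 (−22.03 points) and changed no other call. Ada2b minus Sgf11 turned to −11.6 in the upper 50%, −10.3 with equal numbers (exact p = 0.0286, range 0.0286 to 0.933), −2.51 with Pol II peaks of 500 bp and −1.28 with either Pol II library, and leaving out 1 library gave −2.35 (Pol II 1632_1) to 2.81. Ada2b minus Non-stop turned to 10.01 with Pol II peaks of 500 bp, and leaving out 1 library gave −6.22 to 2.11 (Non-stop 1924_1). The log2 density ratio turned to −0.62 in the upper 50%, and the Sgf11 difference between Ada2b peaks with and without Pol II to −11.2 with equal numbers. The score-rank difference from Sgf11 was −27.7 in the upper 50% (exact p = 0.0286, range 0.0286 to 0.133). The cause of these changes was not tested.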
